A study of Rattus norvegicus with 12 samples.

Results

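Levels of immediate early and stimulus response transcripts were read in rat H9c2 cells for 37 gene symbols chosen by name for that role, of which 36 were in the expression table of 30562 genes. A symbol with several rows was taken at the row with the highest mean, and Dusp1 was not analysed here. Of the 36 genes, 32 reached 1 TPM on average across the 12 libraries and entered the test, as did 12263 genes in all. The other 4 (Dusp2, Dusp4, Egr3 and Nr4a3) were below that level.

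Immediate early genes are transcribed within minutes of a stimulus, from factors already present in the cell, and most of them encode transcription factors, phosphatases or RNA-decay proteins that shape the next wave of transcription. Growth factors, stretch and stress reach them through the ERK, JNK and p38 kinases. In many cell types their transcripts are short-lived, so a level measured at one moment reflects recent synthesis and decay. In heart muscle, the Fos, Egr1 and Atf3 genes are textbook examples induced by loading and by stress.

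The libraries came from H9c2 cells, a myoblast line once taken from embryonic rat heart, given as cardiomyocytes in the labels. There were 4 groups of 3 libraries each: cells given both MMA and folic acid (MMA_FA), cells given MMA alone (MMA), cells given folic acid alone (FA) and control cells (Ctrl). The title of the series names methylmalonic acid, a by-product of propionate catabolism that builds up when cobalamin is short, and folate, the vitamin of one-carbon transfer. Doses, exposure times and the medium are not stated in the labels used here, so it is not known how long before harvest any stimulus was given. Nothing in the labels says that the replicates were separate cultures, and p-values measure only the spread between these libraries. Because TPM (a transcript's share of the library, scaled for transcript length) keep no read totals, the depth behind each value is unknown.

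SRF, itself a member of the set, binds the CArG box, a site through which serum and ERK signals reach many immediate early genes. Promoter windows from RefSeq (build GRCr8), running from 250 bases before to 50 bases after the annotated start, were held for 24 of the 32 tested genes. A CArG box on either strand lay in 6 of these 24 windows (Dusp5, Egr1, Egr2, Klf6, Srf and Zfp36), against 1.64% of 27457 windows of all genes. Those of Egr1, Srf, Dusp5 and Zfp36 are printed 5′ to 3′ with the CArG boxes, and any TATAAA on either strand (read TTTATA on the other), in capitals. They are shown because these 4 genes were all lower with MMA, and they were chosen after the values and matches were seen.
Egr1: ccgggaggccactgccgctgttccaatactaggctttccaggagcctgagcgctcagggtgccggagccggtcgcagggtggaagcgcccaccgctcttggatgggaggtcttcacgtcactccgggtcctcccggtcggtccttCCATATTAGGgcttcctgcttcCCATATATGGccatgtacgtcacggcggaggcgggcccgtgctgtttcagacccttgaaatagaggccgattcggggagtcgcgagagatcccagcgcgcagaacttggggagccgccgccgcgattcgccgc
Srf: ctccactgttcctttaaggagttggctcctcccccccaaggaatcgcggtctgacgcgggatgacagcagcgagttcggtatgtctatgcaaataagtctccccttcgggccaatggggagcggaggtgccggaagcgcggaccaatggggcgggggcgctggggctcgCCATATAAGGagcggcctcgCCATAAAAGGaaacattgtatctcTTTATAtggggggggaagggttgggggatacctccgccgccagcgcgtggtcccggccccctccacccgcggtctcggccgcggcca
Dusp5: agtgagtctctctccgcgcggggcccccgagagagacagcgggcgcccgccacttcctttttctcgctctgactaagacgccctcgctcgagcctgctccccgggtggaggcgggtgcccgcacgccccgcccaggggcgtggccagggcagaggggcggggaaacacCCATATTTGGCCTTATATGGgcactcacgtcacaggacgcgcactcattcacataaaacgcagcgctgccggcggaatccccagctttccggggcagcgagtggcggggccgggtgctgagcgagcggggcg
Zfp36: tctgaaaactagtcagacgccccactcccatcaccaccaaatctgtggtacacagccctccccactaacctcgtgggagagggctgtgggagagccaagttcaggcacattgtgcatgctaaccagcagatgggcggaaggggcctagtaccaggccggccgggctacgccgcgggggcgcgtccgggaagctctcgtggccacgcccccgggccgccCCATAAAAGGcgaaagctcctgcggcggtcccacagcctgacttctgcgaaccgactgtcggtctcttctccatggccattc

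The Egr1 window (GRCr8 chr18:26736828-26737127, plus strand) has its CArG boxes beginning 105 and 83 bases before the start. In Srf (chr9:21923826-21924125, plus strand) they begin 81 and 61 bases before it, with a TTTATA 37 bases before. In Dusp5 (chr1:262543524-262543823, plus strand) they begin 82 and 72 bases before the start, so that both boxes directly follow one another. Zfp36 (chr1:92799059-92799358, minus strand) holds a single box 32 bases before the start. The windows of Fosb, Junb and Ccn1 hold no CArG box in these 300 bases. They are printed with TATAAA or TTTATA in capitals because Fosb and Junb fell furthest among the AP-1 genes with MMA, and Ccn1 rose.
Fosb: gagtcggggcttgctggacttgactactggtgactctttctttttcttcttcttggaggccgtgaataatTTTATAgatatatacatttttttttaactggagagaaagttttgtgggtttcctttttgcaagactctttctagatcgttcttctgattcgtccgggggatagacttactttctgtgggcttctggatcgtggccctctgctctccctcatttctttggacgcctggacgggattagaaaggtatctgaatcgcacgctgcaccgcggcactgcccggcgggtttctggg
Junb: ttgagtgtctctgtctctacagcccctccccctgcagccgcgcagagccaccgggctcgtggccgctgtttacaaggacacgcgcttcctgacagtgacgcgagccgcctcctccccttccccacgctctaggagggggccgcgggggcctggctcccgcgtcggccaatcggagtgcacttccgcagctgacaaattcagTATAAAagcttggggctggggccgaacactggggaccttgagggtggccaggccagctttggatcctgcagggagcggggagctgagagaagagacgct
Ccn1: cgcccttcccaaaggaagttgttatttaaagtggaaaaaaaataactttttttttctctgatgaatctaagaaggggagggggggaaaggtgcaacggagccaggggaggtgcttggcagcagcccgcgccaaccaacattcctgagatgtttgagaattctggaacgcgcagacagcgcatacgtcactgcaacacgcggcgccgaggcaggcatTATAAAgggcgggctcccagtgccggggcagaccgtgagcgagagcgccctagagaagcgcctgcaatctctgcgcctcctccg

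Fosb lies at chr1:88089135-88089434 on the minus strand, and its TTTATA begins 180 bases before the start. Junb lies at chr19:40080876-40081175 on the plus strand, with TATAAA 49 bases before the start, and Ccn1 at chr2:237225640-237225939 on the minus strand, with TATAAA 34 bases before it. TATAAA was found on either strand in 8 of the 24 windows, against 14.3% of all windows. Other motifs searched on both strands were TGACGTCA, the full cAMP response element, in 4 of 24 (1.91% of all windows), and its shorter core TGACG, which overlaps it, in 14 of 24 (22.0%). GCGGGGGCG or GCGTGGGCG, sites of the EGR proteins, lay in 6 of 24 (3.31%), TGANTCA, the AP-1 site, in 1 of 24 (7.33%), and ACCGGAAGT, an ETS site, in 0 of 24 (1.28%). A match describes letters in the window and was not tested as a site.

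The cell type was checked against its markers. Of 19 cardiomyocyte markers in the table, 6 had a mean of at least 1 TPM. Among the others, Myl3 was listed at 0 in all 12 libraries, and Myh6, Myh7, Myl2, Myl7, Actn2, Ryr2 and Actc1 stayed at or below 0.270 TPM. The rest reached at most 0.20 TPM (Nppb), 0.25 TPM (Mybpc3), 0.32 TPM (Nppa), 0.93 TPM (Tnni1) and 1.31 TPM (Tnni3) in a library. Those present included Tnnc1 (299 to 434 TPM), Tnnt2 (14.5 to 84.6 TPM), Myl4, Ttn, Nkx2-5 and Gata4, and the skeletal muscle factors Myod1 (28.2 to 74.2 TPM) and Myog were present too. The summed cardiomyocyte markers ran from 455 to 545 TPM in MMA_FA, 345 to 416 TPM in MMA, 433 to 506 TPM in FA and 346 to 359 TPM in Ctrl, and the summed fibroblast markers from 11989 to 13793 TPM in MMA_FA, 11928 to 13227 TPM in MMA, 13374 to 15565 TPM in FA and 11773 to 12603 TPM in Ctrl. Summed skeletal myoblast markers ran from 243 to 267 TPM in MMA_FA and 247 to 262 TPM in MMA, below the 272 to 321 TPM in FA and 272 to 286 TPM in Ctrl. Cdh15 (mean 134 TPM) weighed most in that sum, and Tnnc1 (mean 359 TPM) in the cardiomyocyte sum. Single skeletal markers did not move together. In MMA_FA against MMA, Acta1 stood at 303%, Tnnc2 at 166% and Myog at 130% of the MMA mean, but Myod1 at 52.9%. Tnnt2, a cardiomyocyte marker, stood at 344% in the same comparison. Mitochondrially encoded genes took 10.1% to 11.1% of TPM in MMA_FA, 10.3% to 11.4% in MMA, 8.78% to 10.4% in FA and 9.34% to 9.87% in Ctrl. The 100 most abundant genes took 37.4% to 38.4% of TPM in MMA_FA, 36.4% to 37.2% in MMA, 36.6% to 36.7% in FA and 34.9% to 35.5% in Ctrl. The part of these shifts in the results was not tested, and in bulk RNA fewer cells of a type and less RNA per cell cannot be told apart.

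With MMA alone, more of these genes fell than rose. In MMA against Ctrl, 17 of the 32 genes were called, that is 53.1%, against 20.4% of all genes tested. Of these, 13 fell (16.5% of all genes fell) and 4 rose (3.85% of all genes rose). The median log2 fold change was -0.27 over the 32 genes and -0.07 over all genes. A call means a Benjamini-Hochberg adjusted p under 0.05 in limma on log2(TPM + 1), with all 12 libraries in the fit, and this scale understates the change of low genes. Under median-ratio scaling, 12 fell and 8 rose, against 6.9% and 8.16% of all genes. Without MMA 3, 12 fell and 2 rose, and 2 also rose without MMA 2 or any 1 Ctrl library. Over all genes, 2501 were called with all libraries, 1173 without MMA 3, and 1249 to 1752 without MMA 2 or any 1 Ctrl library.

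In FA against Ctrl, 4 rose and 1 fell (3.67% and 8.7% of all genes), so 15.6% of the set was called against 12.4% of all genes. Under median-ratio scaling 7 rose and 1 fell (5.78% and 3.88% of all genes), so 25.0% of the set was called against 9.66% of all genes. The median was 0.06 for the set and -0.05 for all genes, and it became -0.01 without FA 3. The count was 9 without FA 2, 1 without Ctrl 3 and 3 when any of MMA_FA 1 and 2, MMA 1 and 2, FA 1 and 3 and Ctrl 1 and 2 was left out. Over all genes, 2571 were called without FA 2, 214 without Ctrl 3 and 328 to 1461 in the fits that gave 3, against 1517.

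With both compounds, the set called in MMA_FA against Ctrl was 34.4% of the 32 genes, near the 39.3% of all genes. There, 7 rose and 4 fell, against 6.67% and 32.6% of all genes. Without MMA_FA 2 or Ctrl 2, 4 rose and 4 fell, and without MMA 3, 7 rose and 7 fell. In these fits 3877, 3943 and 4849 of all genes were called, against 4818 with all libraries. The median was -0.05 for the set and -0.12 for all genes. Median-ratio scaling, which removes most of that shift of all genes, gave 11 that rose and 3 that fell, against 15.5% and 13.9% of all genes, and a median of 0.07 for the set.

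In MMA_FA against MMA, 14 genes were called, 43.8% of the set against 13.7% of all genes. Of these, 11 rose (4.19% of all genes rose) and 3 fell (9.53% of all genes fell). The median was 0.11 for the set and -0.04 for all genes. When libraries were left out, 5 rose and 2 fell without MMA 2 or without MMA_FA 1, 6 rose and 3 fell without MMA_FA 3, and 7 rose and 3 fell without MMA 3. Of all genes, 868, 1148, 1180 and 1696 were called in these fits, in that order, against 1683. This comparison shares its MMA libraries with MMA against Ctrl, so a value that is low in MMA enters both with opposite sign, and the values of each are given side by side.

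In MMA_FA against FA, 3 genes fell and 0 rose (8.9% and 1.6% of all genes), so 9.38% of the set was called against 10.5% of all genes. Median-ratio scaling gave 2 that rose and 2 that fell, with 3.43% and 2.46% of all genes, 5.9% in sum. Without FA 2, 2 rose and 6 fell, and without FA 3, 1 fell. All genes gave 2010 and 505 calls in these fits, against 1288. The interaction, which asks whether the effect of MMA differed between cells with and without FA, was called for 1 gene, in the negative direction, 3.12% of the set against 2.41% of all genes (1.47% negative and 0.938% positive). At an unadjusted p under 0.05 the interaction passed for 15 genes. The share of all genes at that unadjusted threshold was not counted. So this number, and those at that threshold below, have no base to be read against. The adjusted count was 3 without MMA 1, 2 without FA 3 or Ctrl 2, and 0 without FA 1 (12 at an unadjusted p under 0.05) or Ctrl 1 (11). Over all genes the adjusted count was 154, 287, 182, 92 and 85 in these fits, in that order, against 295.

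**Figure D1:**
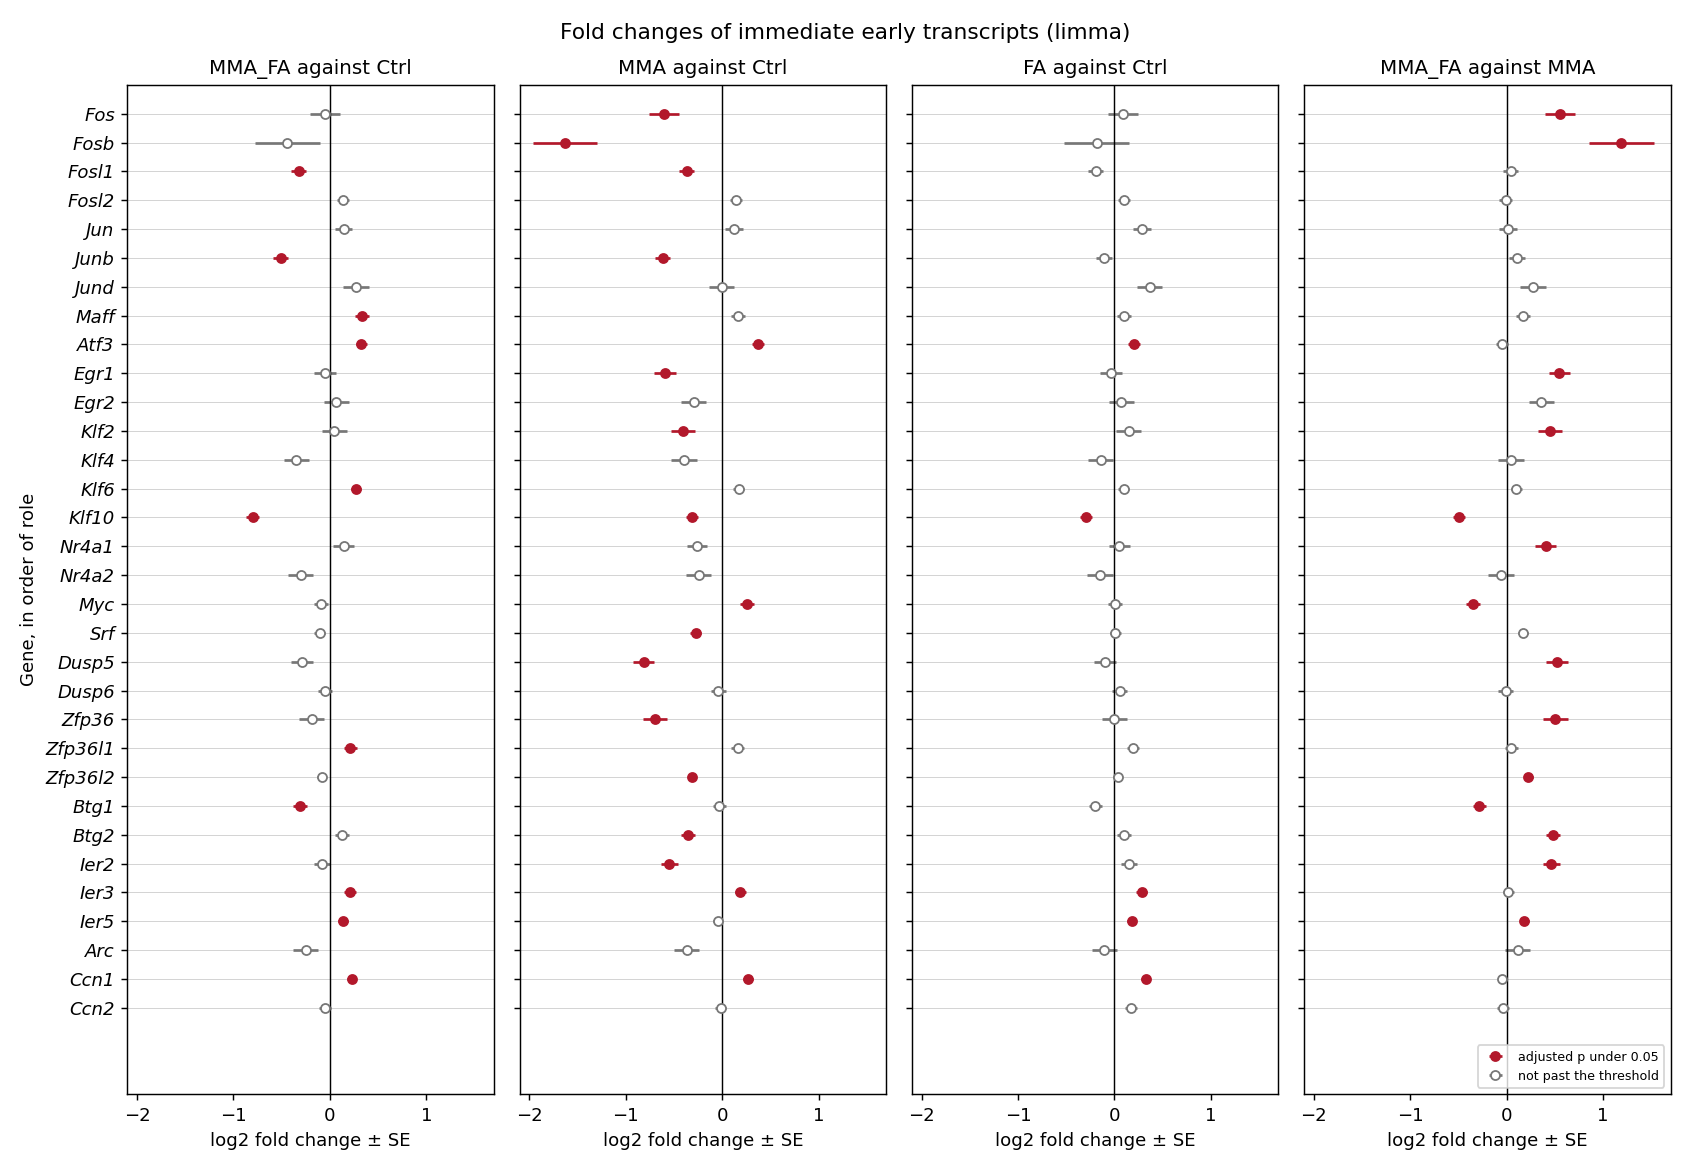
log2 fold change with its standard error for the 32 tested genes (rows, in order of role) in MMA_FA against Ctrl, MMA against Ctrl, FA against Ctrl and MMA_FA against MMA (panels). Filled points had an adjusted p under 0.05 in limma. Fosb has the lowest value with MMA, at -1.63, and Klf10 is left of 0 in each of the 4 panels.

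The AP-1 subunits, leucine-zipper proteins that pair into Fos-Jun dimers, divided into genes that fell with MMA and genes that did not. Fosb had 93.5, 72.9 and 92.0 TPM in MMA_FA, 68.4, 42.1 and 17.4 TPM in MMA, 95.9, 98.2 and 115 TPM in FA, and 131, 117 and 103 TPM in Ctrl (replicates 1 to 3 throughout, so that MMA 3 names the last MMA library). Every MMA library was below every library of the other groups, and replicate 3 was the lowest. The mean in MMA was 36.4% of that in Ctrl, or -1.63 ± 0.34 in log2 units (SE; adjusted p = 0.00773). Set against MMA, Fosb in MMA_FA rose by 1.19 ± 0.34 (adjusted p = 0.0349), and by 0.66 without MMA 3. That second call depended on MMA 2 (adjusted p = 0.0758 without it), MMA_FA 1 (0.0983), MMA_FA 2 (0.0577) and MMA_FA 3 (0.0994). With all 12 libraries it was lost under robust empirical Bayes (adjusted p = 0.0984), in a fit of only MMA_FA and MMA (0.109), without the filter on low genes (0.0928), without the mean-variance trend (0.0539) and with array weights (0.0506). In MMA_FA against Ctrl the value was -0.44 (adjusted p = 0.316) although the groups did not overlap.

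Fos, the other classical serum-induced subunit, was added to the named genes after its values were seen. It had 137, 113 and 139.9 TPM in MMA_FA, 111, 91.9 and 66.9 TPM in MMA, 133, 131 and 167 TPM in FA, and 148, 131 and 125 TPM in Ctrl. The MMA libraries were again the lowest, without overlap, and replicate 3 the lowest of them. Fos fell by 0.60 on the log2 scale in MMA against Ctrl (SE 0.16, adjusted p = 0.0191), a call that did not hold without MMA 3 (-0.40, adjusted p = 0.0641) or Ctrl 1 (-0.53, adjusted p = 0.0757). With FA added to MMA, it rose by 0.55 (MMA_FA against MMA, adjusted p = 0.0347), a call that did not hold without MMA 2 (adjusted p = 0.0818), MMA 3 (0.35, adjusted p = 0.0846), MMA_FA 1 (0.103) or MMA_FA 3 (0.112), and in the same alternative fits as for Fosb except array weights (0.054 to 0.0893). Without the filter on low genes the adjusted p in MMA against Ctrl was 0.051. The value in MMA_FA against Ctrl was -0.05 (adjusted p = 0.821).

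Junb and Fosl1 were below Ctrl both with MMA alone and with MMA and FA together. Junb, a Jun family member that often restrains c-Jun activity, had 57.2, 55.8 and 47.5 TPM in MMA_FA, 48.8, 50.6 and 49.0 TPM in MMA, 70.4, 65.0 and 77.6 TPM in FA, and 81.9, 78.5 and 69.4 TPM in Ctrl. Both groups with MMA lay below both groups without it. Junb stood at -0.51 in MMA_FA against Ctrl (adjusted p = 0.000644), at -0.62 in MMA against Ctrl (adjusted p = 0.00164) and at -0.40 in MMA_FA against FA (adjusted p = 0.0164, or 0.0503 without FA 3). Between MMA_FA and MMA the value was 0.11 (adjusted p = 0.43). The table gives the only Junb row the biotype pseudogene although its description is that of JunB, so the assignment of reads to it is uncertain.

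Fosl1, which encodes FRA1, had 27.4, 29.4 and 24.6 TPM in MMA_FA, 27.3, 26.3 and 25.2 TPM in MMA, 27.7, 28.6 and 33.3 TPM in FA, and 35.6, 32.8 and 34.2 TPM in Ctrl. It fell in MMA against Ctrl by 0.37 on the log2 scale (adjusted p = 0.00761) and in MMA_FA against Ctrl by 0.33 (adjusted p = 0.00533). With median-ratio scaling the second was -0.21 and no longer called (adjusted p = 0.0623). The MMA_FA and MMA libraries overlapped (0.04, adjusted p = 0.762).

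Atf3, a stress-induced repressor of the same zipper class, went the other way. Its levels were 41.6, 41.2 and 41.2 TPM in MMA_FA, 40.8, 44.3 and 42.9 TPM in MMA, 36.1, 36.0 and 41.6 TPM in FA, and 30.8, 33.8 and 33.6 TPM in Ctrl. The 9 treated libraries all lay above the 3 Ctrl libraries. Atf3 rose by 0.33 in MMA_FA against Ctrl (adjusted p = 0.00146), by 0.37 in MMA against Ctrl (adjusted p = 0.00324) and by 0.20 in FA against Ctrl (adjusted p = 0.0455). The FA call was kept when FA 2 was left out and lost without any other single library, with adjusted p from 0.0514 to 0.145. Maff, a small Maf protein with no activation domain, rose by 0.34 in MMA_FA against Ctrl (adjusted p = 0.00379). Fosl2, Jun and Jund were not called in any of the 6 comparisons. Jund had 148, 138 and 161 TPM in MMA_FA, 123, 117 and 128 TPM in MMA, 159.9, 123 and 203 TPM in FA, and 132, 118 and 119.7 TPM in Ctrl, so that FA 3 stood highest and FA overlapped Ctrl.

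**Figure D2:**
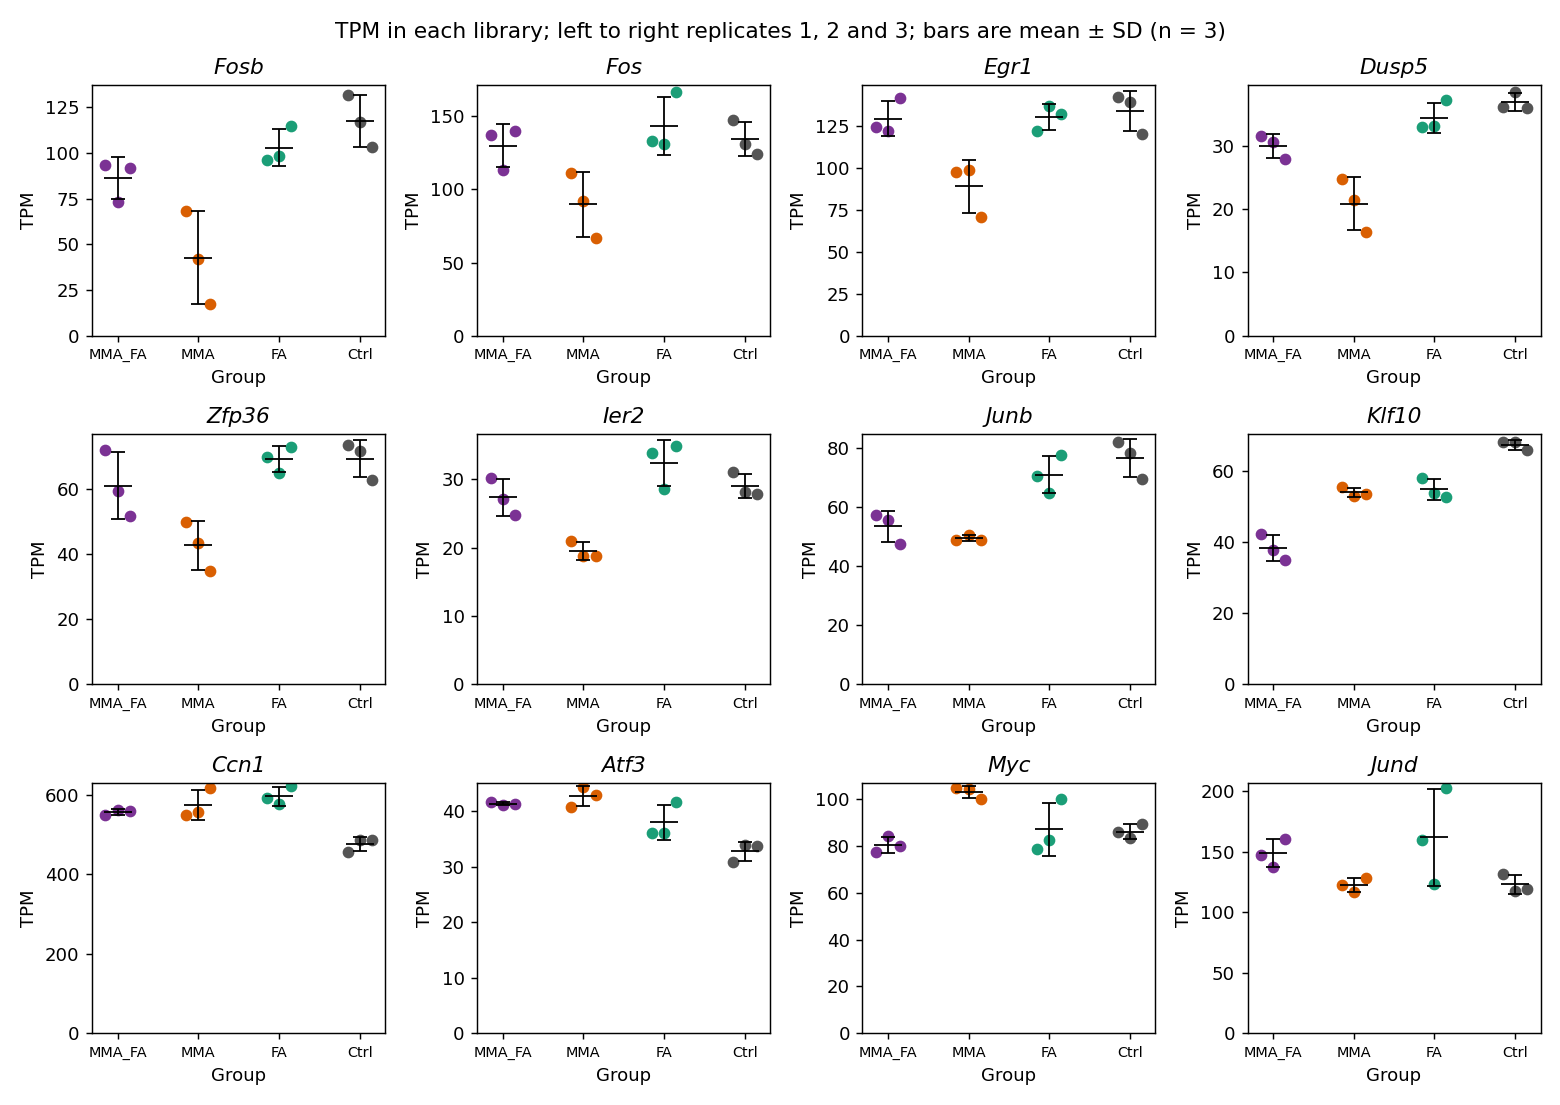
TPM of 12 genes (panels) in each library by group, with replicates 1 to 3 from left to right and bars for the mean ± SD (n = 3). Fosb, Fos, Egr1, Dusp5, Zfp36 and Ier2 have their lowest libraries in MMA, Klf10 in MMA_FA, and Ccn1 and Atf3 in Ctrl.

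Among the other transcription factors, Egr1, the zinc-finger factor best known as a readout of ERK signalling, had 124, 122 and 141 TPM in MMA_FA, 97.3, 98.5 and 70.6 TPM in MMA, 122, 137 and 132 TPM in FA, and 142, 139 and 120.0 TPM in Ctrl. The MMA libraries were below all others, and the remaining 3 groups overlapped. Egr1 fell in MMA against Ctrl by 0.60 on the log2 scale (SE 0.11, adjusted p = 0.00553), and in MMA_FA against MMA it rose by 0.55 (SE 0.11, adjusted p = 0.00746). The value in MMA_FA against Ctrl was -0.05 (adjusted p = 0.768). Both calls were kept when each library was left out in turn. The interaction was 0.58 ± 0.16 (adjusted p = 0.0814) and was not called.

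Srf encodes the factor whose site is the CArG box, and its binding to the windows printed above was not measured. Srf had 56.3, 55.8 and 54.0 TPM in MMA_FA, 50.3, 49.0 and 48.1 TPM in MMA, 58.0, 56.5 and 66.3 TPM in FA, and 59.4, 60.8 and 58.8 TPM in Ctrl. It fell by 0.28 in MMA against Ctrl (SE 0.05, adjusted p = 0.00651), with the MMA libraries lowest and the MMA_FA libraries between them and Ctrl. The difference MMA_FA against MMA was 0.17 (adjusted p = 0.0594) on the deposited values and 0.21 under median-ratio scaling (adjusted p = 0.0206). Of the 6 genes with a CArG box, Egr1, Srf, Dusp5 and Zfp36 fell in MMA against Ctrl, Klf6 was at 0.17 (adjusted p = 0.0506), and Egr2 was not called. Of all 24 genes with a window, 10 fell. The CArG box lay in 4 of these 10, and the shorter core TGACG in 8 of them. A link between any motif and the fall was not tested.

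Klf10, a Krüppel-like repressor induced by TGF-β, had a pattern of its own. It had 42.3, 37.8 and 34.9 TPM in MMA_FA, 55.5, 53.1 and 53.5 TPM in MMA, 58.2, 53.8 and 52.6 TPM in FA, and 68.1, 68.3 and 65.8 TPM in Ctrl. The MMA and FA libraries overlapped each other, all MMA_FA libraries were below them and all Ctrl libraries above. Klf10 fell by 0.80 ± 0.06 in MMA_FA against Ctrl (adjusted p = 1.04e-05), by 0.31 in MMA against Ctrl (adjusted p = 0.00689) and by 0.29 in FA against Ctrl (adjusted p = 0.0156). Relative to the shift of all genes, the MMA_FA value was -0.69. It also fell by 0.49 in MMA_FA against MMA (adjusted p = 0.000469) and by 0.51 in MMA_FA against FA (adjusted p = 0.00207). The FA call was lost without FA 3 (adjusted p = 0.0519) or Ctrl 3 (0.0571). The mean in MMA_FA was 56.9% of that in Ctrl.

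Myc, the growth regulator, was high with MMA alone. Added after its values were seen, it had 77.2, 84.1 and 80.0 TPM in MMA_FA, 104, 104 and 99.95 TPM in MMA, 78.5, 82.6 and 99.8 TPM in FA, and 85.7, 83.2 and 89.2 TPM in Ctrl. It rose by 0.26 in MMA against Ctrl (adjusted p = 0.0284), a call that did not hold without any 1 of the MMA or Ctrl libraries (adjusted p from 0.0521 to 0.085). In MMA_FA against MMA it fell by 0.35 (adjusted p = 0.00746).

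Klf2, a flow-responsive factor best known from endothelium, was present at low level, with 5.34, 4.30 and 5.39 TPM in MMA_FA, 3.75, 3.22 and 3.20 TPM in MMA, 5.51, 4.31 and 6.68 TPM in FA, and 5.31, 4.49 and 4.63 TPM in Ctrl. Its fall of 0.40 in MMA against Ctrl (adjusted p = 0.0415) was not called with median-ratio scaling (adjusted p = 0.0778) or without any of 8 single libraries (MMA 1 to 3, Ctrl 1 to 3, FA 1 or MMA_FA 1). Its rise of 0.45 in MMA_FA against MMA (adjusted p = 0.0344) was lost without MMA 1, 2 or 3 or MMA_FA 1 or 3 (adjusted p from 0.0563 to 0.114). Klf6 rose by 0.27 in MMA_FA against Ctrl (adjusted p = 0.00307). Nr4a1, an orphan nuclear receptor, ran from 5.80 to 6.88 TPM in MMA_FA, against 3.68 to 5.32 TPM in MMA, and rose by 0.40 (adjusted p = 0.0267), a call that did not hold without MMA 1 (0.0735), MMA 2 (0.111), MMA_FA 1 (0.0969) or MMA_FA 3 (0.0577). Klf4, Egr2 and Nr4a2 were not called in any comparison, and Klf4 came closest, at -0.39 in MMA against Ctrl (adjusted p = 0.0522). Egr3 (0.430 to 0.850 TPM) and Nr4a3 (0.570 to 1.36 TPM) were below the filter. In the fit without it, Egr3 was at -0.26 in MMA against Ctrl (adjusted p = 0.0236) and 0.26 in MMA_FA against MMA (adjusted p = 0.0292), and Nr4a3 at -0.37 in MMA against Ctrl (adjusted p = 0.0296).

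Dusp5 encodes a nuclear phosphatase that removes phosphate from ERK. It had 31.5, 30.6 and 27.8 TPM in MMA_FA, 24.7, 21.4 and 16.4 TPM in MMA, 32.9, 33.1 and 37.2 TPM in FA, and 36.1, 38.5 and 36.0 TPM in Ctrl. The MMA libraries were lowest and the MMA_FA libraries lay between them and the other groups, without overlap. Dusp5 fell by 0.81 ± 0.11 in MMA against Ctrl (adjusted p = 0.00173), and in MMA_FA against MMA it rose by 0.52 ± 0.11 (adjusted p = 0.00883). In MMA_FA against Ctrl it was at -0.29 (adjusted p = 0.0549). Its interaction of 0.62 ± 0.16 had an adjusted p of 0.0596. Dusp6, the cytoplasmic ERK phosphatase, ranged from 26.9 to 34.9 TPM over all libraries and was not called in any comparison. Dusp4 (0.08 to 0.270 TPM) was nearly silent, and Dusp2 was listed at 0 in 10 of the 12 libraries, with 0.05 TPM in MMA 2 and 0.06 TPM in FA 1.

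Zfp36 encodes tristetraprolin, which binds AU-rich elements and speeds the decay of cytokine and immediate early transcripts. It had 72.2, 59.4 and 51.9 TPM in MMA_FA, 49.99, 43.6 and 34.9 TPM in MMA, 69.9, 65.2 and 73.2 TPM in FA, and 73.7, 71.7 and 63.0 TPM in Ctrl. MMA 3 was again the lowest library, and the MMA_FA values reached from the level of Ctrl to just above MMA. Zfp36 fell by 0.70 ± 0.13 in MMA against Ctrl (adjusted p = 0.00488) and in MMA_FA against MMA it rose by 0.51 (adjusted p = 0.0215). The second call was lost without MMA 2 (adjusted p = 0.0589), MMA 3 (0.0609), MMA_FA 1 (0.0818) or MMA_FA 2 (0.0524), and in a fit of only MMA_FA and MMA (0.0699) or without the filter on low genes (0.0593).

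Its paralogue Zfp36l2 had 138, 138 and 131 TPM in MMA_FA, 115, 116 and 117 TPM in MMA, 146, 141 and 157 TPM in FA, and 142, 144 and 147 TPM in Ctrl. The 3 MMA libraries agreed closely and lay below all others. It fell by 0.31 ± 0.04 in MMA against Ctrl (adjusted p = 0.00173) and rose by 0.23 in MMA_FA against MMA (adjusted p = 0.00479). The third paralogue, Zfp36l1, rose by 0.21 in MMA_FA against Ctrl (adjusted p = 0.0229), a call that did not hold without MMA_FA 2 or 3 or Ctrl 1 or 2 (adjusted p from 0.0522 to 0.0814).

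Btg2, an antiproliferative partner of the CCR4-NOT deadenylase and a p53 target, had 76.5, 67.4 and 70.7 TPM in MMA_FA, 53.0, 48.6 and 51.4 TPM in MMA, 69.1, 66.9 and 74.7 TPM in FA, and 72.9, 59.5 and 65.2 TPM in Ctrl. All MMA libraries were below the rest. Btg2 fell by 0.36 in MMA against Ctrl (SE 0.07, adjusted p = 0.00739), and in MMA_FA against MMA it rose by 0.48 (adjusted p = 0.0012). Btg1, its relative, was at 212, 218 and 219 TPM in MMA_FA, 270.3, 278 and 243 TPM in MMA, 211, 251 and 244 TPM in FA, and 269.6, 253 and 285 TPM in Ctrl. It fell in MMA_FA against Ctrl by 0.31 (adjusted p = 0.00402) and in MMA_FA against MMA by 0.28 (adjusted p = 0.018), the second lost without MMA 1 (0.0728), MMA 2 (0.0833) or MMA_FA 1 (0.059).

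Ier2, a nuclear protein of growth-factor-stimulated cells, had 30.2, 27.1 and 24.7 TPM in MMA_FA, 21.0, 18.7 and 18.8 TPM in MMA, 33.8, 28.6 and 34.9 TPM in FA, and 31.0, 28.1 and 27.9 TPM in Ctrl. The MMA libraries were below all others. It fell by 0.55 ± 0.09 in MMA against Ctrl (adjusted p = 0.00302) and rose by 0.47 in MMA_FA against MMA (adjusted p = 0.00397). Both calls were kept when each library was left out in turn.

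Ier3, an early response gene linked to cell survival, was lowest in Ctrl. It had 112, 119 and 118 TPM in MMA_FA, 107, 116 and 123 TPM in MMA, 116, 121 and 131 TPM in FA, and 104, 95.7 and 103 TPM in Ctrl. It rose against Ctrl by 0.21 in MMA_FA (adjusted p = 0.0141), 0.19 in MMA (adjusted p = 0.0375) and 0.28 in FA (adjusted p = 0.0136). The MMA call was lost without MMA 2 or 3 or any 1 Ctrl library (adjusted p from 0.0642 to 0.147), the FA call without Ctrl 3 (0.0542) and the MMA_FA call without MMA_FA 2 or Ctrl 2 (0.0501 to 0.0599). Ier5 rose by at most 0.19, in MMA_FA against MMA (adjusted p = 0.0303), a call that did not hold without any 1 of the MMA_FA or MMA libraries (0.0644 to 0.0841). It also rose by 0.14 in MMA_FA against Ctrl (adjusted p = 0.0464) and 0.18 in FA against Ctrl (adjusted p = 0.0401), both lost without MMA_FA 1 or 2, MMA 1 or 2, FA 1 or any 1 Ctrl library. Besides these, the MMA_FA call was lost without MMA_FA 3 (adjusted p up to 0.111 over its 9 losses) and the FA call without FA 3 (up to 0.127 over its 9).

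Ccn1, a secreted matricellular protein also known as CYR61, was above Ctrl in each treated group. It had 548, 561 and 560.2 TPM in MMA_FA, 549, 556 and 616 TPM in MMA, 592, 576 and 622 TPM in FA, and 456, 485 and 487 TPM in Ctrl. No treated library overlapped Ctrl, and the MMA_FA libraries overlapped those of MMA and lay below those of FA. Ccn1 rose against Ctrl by 0.23 in MMA_FA (adjusted p = 0.00344), 0.27 in MMA (adjusted p = 0.00436) and 0.32 in FA (adjusted p = 0.00423), and these calls were kept when each library was left out. Its interaction, -0.37 ± 0.07 (adjusted p = 0.019), was the one call of the set. It was lost without FA 1 (adjusted p = 0.0517) or Ctrl 1 (0.0587).

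Ccn2, the related growth factor CTGF, was the most abundant gene of the set on the TPM scale, at 1816, 1676 and 1536 TPM in MMA_FA, 1718, 1641 and 1788 TPM in MMA, 2039, 1882 and 1954 TPM in FA, and 1719.9, 1664 and 1823 TPM in Ctrl. The FA libraries were the highest. It fell by 0.23 in MMA_FA against FA (adjusted p = 0.0332), but not with median-ratio scaling (adjusted p = 0.163) or without FA 1 or 3, MMA_FA 2 or 3 or Ctrl 1 (0.0502 to 0.112). Arc, best known from neurons, ranged from 1.23 to 2.53 TPM and was not called in any comparison.

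**Figure D3:**
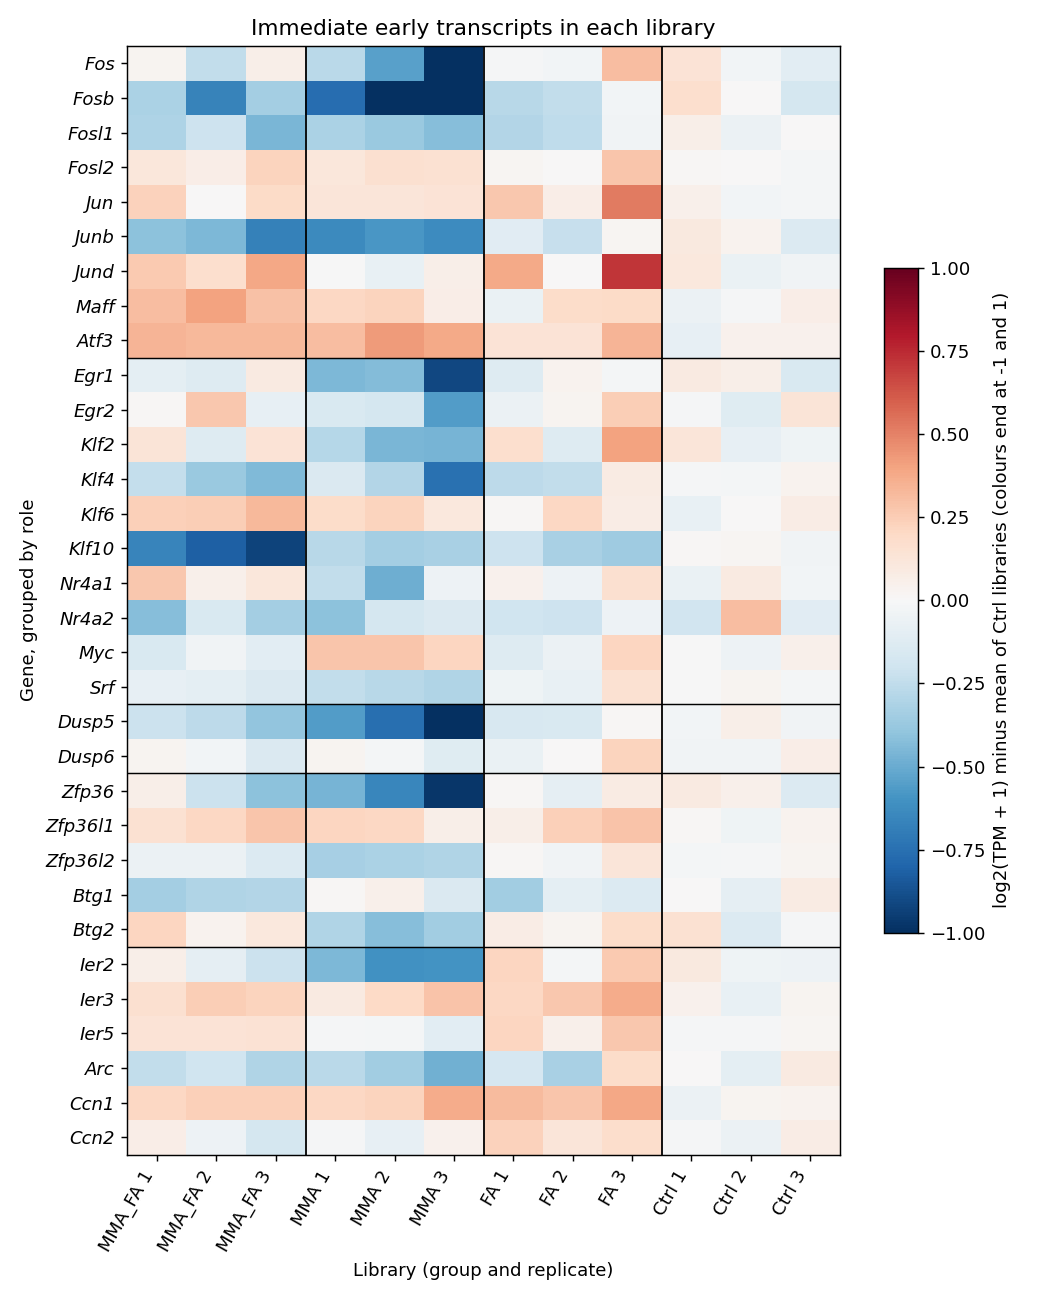
log2(TPM + 1) minus the mean of the Ctrl libraries for the 32 tested genes (rows, grouped by role) in the 12 libraries (columns). Colours end at -1 and 1. MMA 3 holds the darkest blue in Fos, Egr1, Dusp5 and Zfp36, and FA 3 is the reddest FA column. In Fosb, MMA 2 and MMA 3 are both past the end of the colours and look alike.

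Levels of these genes differed between replicates of a group as well as between groups. The residual SD of log2(TPM + 1) within groups had a median of 0.1005 over the 32 genes and 0.0895 over all genes tested, and 21 of the 32 lay above the median of all genes. Fosb had the widest spread, 0.508, at the 98.7th percentile of all genes. Most of it came from MMA, where its SD was 0.972, against 0.198 in MMA_FA, 0.138 in FA and 0.175 in Ctrl. Fos (0.232), Jund (0.195), Klf4 (0.193) and Zfp36 (0.189) were also above the 90th percentile. The SD of Fos was widest in MMA (0.367, against 0.124 to 0.192 elsewhere), and that of Jund in FA (0.357, against 0.0684 to 0.111). At the other end, Zfp36l2 (0.0487) was at percentile 9.93.

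Some libraries stood at the end of their group for many of these genes. FA 3 was the highest of its group for 27 of the 32 genes, against 40.6% of all genes, and FA 2 was the lowest for 18, against 38.6%. MMA 3 was the lowest of its group for 18 of 32, against 47.1% of all genes. Of the 13 genes that fell with MMA, 8 were the lowest of their group in MMA_FA 3, 8 in MMA 3, 8 in FA 2 and 9 in Ctrl 3, against 27.1%, 47.1%, 38.6% and 31.6% of all genes. Of those 13, the calls of Fos and Klf2 were the ones lost without MMA 3. The labels give no batch, harvest order or date, so none could be set against these differences. Summed levels of 11 heat-shock and handling-stress genes ran from 3197 to 3503 TPM in MMA_FA, 3184 to 3247 TPM in MMA, 3109 to 3187 TPM in FA and 3258 to 3312 TPM in Ctrl.

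**Figure D4:**
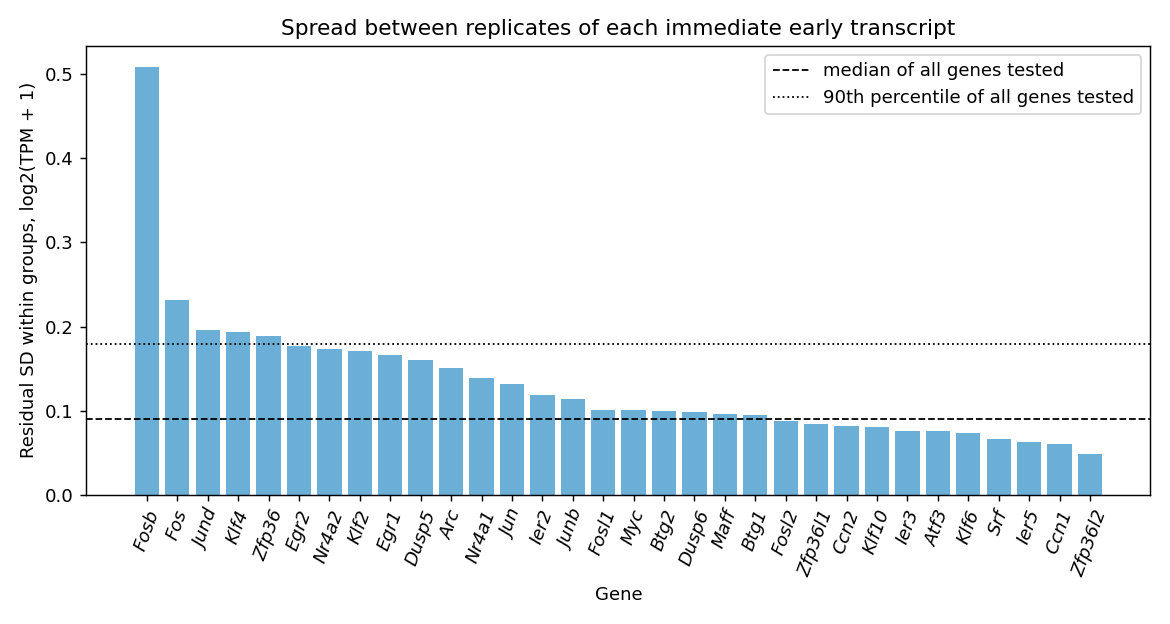
Residual SD of log2(TPM + 1) between replicates for each of the 32 tested genes (bars), with the median (dashed) and the 90th percentile (dotted) of all genes tested. Fosb, at 0.508, stands far above Fos, at 0.232, and 5 genes pass the dotted line.

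Genes that act before and after these were read from lists of the pathway. Of all genes tested in MMA against Ctrl, 16.5% fell and 3.85% rose (6.9% and 8.16% under median-ratio scaling). Their median was -0.07. Calls over all genes numbered 2501 with all libraries, 1173 without MMA 3, and 1249 to 1752 without MMA 2 or any 1 Ctrl library. Of 21 growth factor receptors and ERK cascade genes tested, 7 fell and 0 rose in MMA against Ctrl, with a median of -0.10, and 3 fell under median-ratio scaling. Without MMA 2 or Ctrl 3, 3 fell, and without MMA 3 or Ctrl 1, 4 fell. The receptor Met (-0.36, adjusted p = 0.00429) and the Ras regulators Nf1 (-0.35) and Sos1 (-0.25) had the smallest p. Of 14 ERK feedback genes, 4 fell and 1 rose in MMA against Ctrl (median -0.12), while 3 fell and 2 rose under median-ratio scaling and 2 fell without MMA 3 or Ctrl 1. Etv5, an ETS factor that reads FGF and ERK activity, fell by 0.49 in MMA against Ctrl (adjusted p = 0.0032) and rose by 0.43 in MMA_FA against MMA (adjusted p = 0.00358). Of 11 JNK and p38 genes, 3 fell and 0 rose in MMA against Ctrl (median -0.11), Map3k1 by 0.49 (adjusted p = 0.00964), and 2 fell under median-ratio scaling.

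Among 19 factors that act with SRF and CREB, 10 fell and 1 rose in MMA against Ctrl (16.5% and 3.85% of all genes), with a median of -0.22. Mrtfa, the actin-regulated partner of SRF (-0.31, adjusted p = 0.0109), and the CREB coactivators Crtc2 (-0.28) and Crebbp (-0.27) were among those that fell. The number that fell was 4 under median-ratio scaling and without MMA 3, and 6 without Ctrl 1. The downstream cytoskeletal targets of SRF and MRTF had other counts. Of 17 tested, 2 fell and 0 rose in MMA against Ctrl, a share of 11.8% that fell against 16.5% of all genes (median -0.05, or 0.03 under median-ratio scaling). In MMA_FA against MMA 10 rose and 0 fell (4.19% and 9.53% of all genes), with a median of 0.25 against -0.04 for all genes. Under median-ratio scaling 12 rose. With that scaling 1543 of 12263 genes were called in either direction, and the share of all genes that rose is not given here. Vcl (0.47, adjusted p = 1.44e-05), Fhl2 (0.42, adjusted p = 0.00042), Tpm2 (0.30) and Tpm1 (0.28), which encode vinculin, a LIM-domain protein and tropomyosins, had the smallest p.

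For 23 other rapid response signalling genes, 8 rose and 3 fell in MMA against Ctrl (3.85% and 16.5% of all genes), with a median of 0.03, and 9 rose and 0 fell under median-ratio scaling. The kinase Pim1 rose by 0.72 (adjusted p = 0.00101), the pseudokinase Trib1 by 0.57 (adjusted p = 0.00087), Plk2 by 0.57 and Rgs2 by 0.42, and these calls were kept when each library was left out. The list gave 5 that rose and 0 that fell without MMA 3, 4 and 0 without Ctrl 1, and 6 and 0 without Ctrl 3. For 26 other rapid response transcription factors, 4 rose and 5 fell, so that 19.2% fell against 16.5% of all genes, and the median of -0.07 was that of all genes. Among them were Cited2 at 0.47 (adjusted p = 0.00186) and the clock gene Per2 at -0.48 (adjusted p = 0.00255). For 18 factors of AU-rich mRNA decay, 5 fell and 0 rose in MMA against Ctrl, a share of 27.8% that fell against the same 16.5% (median -0.11), the decapping factor Dcp1a by 0.38 (adjusted p = 0.00299), while 2 fell and 1 rose under median-ratio scaling and 2 fell without MMA 3 or Ctrl 3.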

How the data were processed

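PolyA RNA of H9c2 cells was sequenced from 12 libraries, made with a stranded mRNA kit per the labels' protocols. Reads were handled with fastp and HISAT2 on mRatBN7.2, per the submitters' processing notes; their versions, the annotation and the strand setting are not stated there. The authors deposited TPM per gene, and its title mentions RSEM. All 12 columns were mapped to samples. Without read counts the depth, and so the counting error of a gene, is unknown.

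From these values, genes averaging at least 1 TPM were fitted as log2(TPM + 1) in limma 3.58.1 (R 4.3.3, package data.table, version 1.17.8), using group means and a trended prior, with 8 residual and 4.32 prior degrees of freedom. A call needed a Benjamini-Hochberg adjusted p below 0.05 over all genes tested, within each of the 6 comparisons. An exact permutation of 3 against 3 libraries cannot go below 0.1. Python 3.11.15, pandas 2.3.3 and matplotlib 3.10.9 were used for summaries and drawing, and the fit was tested on simulated data. Alternatives were other pseudocounts, filters, scalings and variance models, a replicate block, a fit of only the groups compared and each library left out.

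The genes and lists were chosen with earlier results of these data known. Single-library values are given for the 14 called genes with the smallest p in any comparison (Klf10, Junb, Dusp5, Zfp36l2, Ccn1, Btg2, Ier2, Atf3, Zfp36, Egr1, Srf, Fosl1, Ier3 and Fosb). Those of Fos, Jund, Myc, Klf2, Btg1 and Ccn2 were added after their values were seen. From each other list, up to 4 called genes per comparison with the smallest p could be named. The rule for promoters picked Ccn1, Junb, Ier5, Dusp5, Zfp36l2 and Btg2, of which 3 are printed.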

Additional observations from a re-analysis of the deposited data

Results flagged for a closer look

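The interaction term of limma, which asks whether the effect of MMA differed between cells with and without FA, was called for Ccn1. Its value was -0.37 on the log2 scale (adjusted p = 0.019), with MMA_FA against FA at -0.10 and MMA against Ctrl at 0.27. It was the only gene called of the 32 tested in the set, with 2.41% of all genes called. This call was lost without FA replicate 1 (adjusted p = 0.0517) or Ctrl replicate 1 (0.0587). Among genes of the other lists, the same term was called in the negative direction for the transcription factors Cebpd (-0.57) and Ets2 (-0.35), the signalling genes Trib1 (-0.46), Pim1 (-0.63), Gadd45b (-0.61) and Plk2 (-0.44), and the interleukin-33 receptor gene Il1rl1 (-0.84). It was called in the positive direction for the cytoskeletal genes Vcl (0.33) and Fhl2 (0.33) and, from the skeletal myoblast markers, the actin gene Acta1 (0.82). The calls of Cebpd, Il1rl1 and Vcl were kept when each of the 12 libraries was left out, that of Trib1 was lost without Ctrl replicate 1, that of Acta1 without Ctrl replicate 1 or 3, and those of Ets2, Pim1, Gadd45b, Plk2 and Fhl2 were lost without 7 to 11 of them.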

How the results depend on the processing

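Among refits of called fold changes of the set, 1083 kept direction and call, 138 kept direction only, and none changed sign. Many of these refits changed only the filter, the variance model or a library outside the comparison. There the fold change itself could not move, so its sign was fixed in advance. Counts of called genes in FA against Ctrl (5) became 3 with all genes above 0 in any library, 8 under median-ratio scaling or quantile normalization, 3 without the mean-variance trend, 14 with array weights and 3 in a fit of only the groups compared. That last fit gave 17 for MMA_FA against Ctrl (11), and 0 for MMA_FA against FA (3), where limma gave 8 at an unadjusted p under 0.05. With all genes above 0, MMA_FA against MMA (14) gave 9. Array weights, whose estimation stopped before its tolerance was met, gave 9 for MMA_FA against FA and 12 for the interaction (1), and the interaction gave 2 with a mean of at least 5 TPM. Leaving out each library in turn gave 13 to 21 calls in MMA against Ctrl, 1 to 9 in FA against Ctrl, 8 to 15 in MMA_FA against Ctrl, 7 to 16 in MMA_FA against MMA, 1 to 8 in MMA_FA against FA and 0 to 3 in the interaction (limma, with 12 and 11 genes at an unadjusted p under 0.05 in the fits giving 0). Over all genes, the first 3 of these ranges were 1173 to 3026, 214 to 2571 and 3605 to 5238. The other 3 were 868 to 1948, 357 to 2010 and 85 to 496. Shares of all genes at an unadjusted p under 0.05 were not counted. The median over the set became -0.010 in FA against Ctrl with array weights and -0.014 without FA replicate 3, and 0.072 and 0.021 in MMA_FA against Ctrl under median-ratio scaling and quantile normalization. Over all genes, array weights gave 5929 calls in FA against Ctrl (1517), 4485 in MMA_FA against FA (1288) and 1810 in the interaction (295). The fit of only the groups compared gave 604 in FA against Ctrl, 23 in MMA_FA against FA and 5014 in MMA_FA against Ctrl (4818). FA against Ctrl had 1185 under median-ratio scaling, 1267 under quantile normalization and 1271 without the mean-variance trend. With all genes above 0 (20211 tested), it had 928, and MMA_FA against MMA had 1268 (1683). The interaction had 347 with a mean of at least 5 TPM (9981 tested) and 214 with the replicate block. The cause of these differences was not tested. With replicate number as a block, the interaction called 2 genes of the set and the Ier5 calls in FA against Ctrl (adjusted p = 0.056) and MMA_FA against Ctrl (0.0611) were lost. Deviations of same-numbered libraries correlated at -0.12 to 0.11 (18 pairs, across genes), so the pairing rests on numbers alone. A fit of only MMA_FA and FA lost Klf10 (adjusted p = 0.0511) and Junb (0.0972) in that comparison. Besides the losses named in the report, 1 or more alternatives with all 12 libraries lost Ier3, Klf2 and Myc in MMA against Ctrl, Atf3 and Ier5 in FA against Ctrl, Fosl1 and Ier5 in MMA_FA against Ctrl, Ier5, Klf2 and Nr4a1 in MMA_FA against MMA and Ccn2 in MMA_FA against FA (adjusted p from 0.0505 to 0.163). Without the filter on low genes, Dusp2 and Dusp4 were not called. Depth is unknown.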

Other observations

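A further list of 17, named secreted early response genes, held genes of cytokines, growth factors and matrix proteins. It also held the receptor gene Il1rl1 and the enzyme gene Ptgs2. In MMA against Ctrl 4 rose and 4 fell (3.85% and 16.5% of all genes; median 0.08), while 7 rose and 1 fell under median-ratio scaling, 1 fell without MMA 3 and 2 fell without MMA 1, Ctrl 1 or Ctrl 3. Edn1, the precursor of the vasoconstrictor endothelin-1, was at 0.99 (adjusted p = 0.00141), Il1rl1 at 0.66, the hyaluronan-binding Tnfaip6 at 0.64 and Ptgs2, the inducible cyclooxygenase, at 0.42. In FA against Ctrl 7 rose and 2 fell (3.67% and 8.7% of all genes), and the chemokines Cxcl1 (-1.01, adjusted p = 0.00561) and Ccl2 (-0.94, adjusted p = 0.00765) were the 2 that fell (4 rose without Ctrl 3). In MMA_FA against MMA 1 rose and 5 fell (4.19% and 9.53% of all genes; 2 fell without MMA 1, MMA 2 or MMA_FA 3), with Il6 at -0.41 (adjusted p = 0.00953).

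YAP and TEAD targets and factors, a family that holds Ccn1 and Ccn2 among its best known members, gave 0 that rose and 7 that fell of 13 others tested in MMA against Ctrl (16.5% of all genes fell, 6.9% under median-ratio scaling; median -0.16), 2 that fell under median-ratio scaling, 3 without MMA 2, and 4 without MMA 3, Ctrl 1 or Ctrl 3. Tead1 fell by 0.25 (adjusted p = 0.00397) and Crim1 by 0.26 (adjusted p = 0.00856), while Ccn1 rose in the same libraries. Heat-shock and handling-stress genes gave 0 calls of 10 in MMA against Ctrl in limma, with 1 at an unadjusted p under 0.05 (1 that rose under median-ratio scaling). In MMA_FA against Ctrl 3 rose and 2 fell (6.67% and 32.6% of all genes), with the chaperone Hspa8 at 0.50 (adjusted p = 0.00163), and median-ratio scaling gave 5 that rose and 0 that fell. Among genes with other patterns, Id3 was at -0.76 in MMA_FA against Ctrl (adjusted p = 2.35e-06), -0.39 in FA against Ctrl (adjusted p = 0.00262), -0.66 in MMA_FA against MMA (adjusted p = 1.83e-05) and -0.37 in MMA_FA against FA (adjusted p = 0.00322).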
